A study of Mus musculus with 4 samples.

Results

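The 7 RFX transcription factor genes of the mouse, Rfx1 to Rfx7, were examined among 21911 protein-coding genes for H3K27ac, the acetylated form of lysine 27 on histone H3, which is found at promoters and enhancers in use. The genes were selected on these same data, because the sequence that RFX proteins bind and the Rfx3 locus had stood out, so what follows is a description and no test was made of it. For each gene, all peaks in the gene body or within 50 kb of it were taken, which gave 67 of the 88930 peaks of the replicated list. Peaks were read from 4 lists that the authors deposited: replicated peaks, peaks of both pools together, and a list each for pool C and pool D.

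The tissue was the layer of hippocampus of adult male B6CASTF1/J mice, an F1 hybrid strain, aged 2 months. The 4 samples were 2 technical replicates of each of 2 pools, C and D, and each pool was made from 7 tissue samples. There was a single group of animals, so the pools are the only biological repeat and no condition was compared with another. In bulk tissue, a weak peak from few cells and a weak peak from many cells cannot be told apart.

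RFX proteins are winged-helix factors that bind the X-box, a DNA element made of a pair of inverted GTTGCC-like sites. Rfx1, Rfx2 and Rfx3 are close relatives, and Rfx2, Rfx3 and Rfx4 are known for their part in building cilia and patterning the brain. Rfx5 switches on major histocompatibility complex (MHC) class II genes together with the partner proteins of Rfxank and Rfxap, Rfx6 directs the formation of pancreatic islet cells, and Rfx7 is a broadly acting relative of Rfx5.

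Promoter sequences were taken from RefSeq (GRCm38.p6, the same build as mm10), which held 8 windows for the 7 genes, Rfx4 having 2. Each window runs from 250 bases before the annotated start to 50 after it. The windows of Rfx3, Rfx2 and Rfx6 are shown because they stand for the strongest promoter peak, a weak one and none. Capitals mark every CG pair, and all are written 5′ to 3′ on the strand of the gene.

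Rfx3 promoter, chr19:28011117-28011416, minus strand: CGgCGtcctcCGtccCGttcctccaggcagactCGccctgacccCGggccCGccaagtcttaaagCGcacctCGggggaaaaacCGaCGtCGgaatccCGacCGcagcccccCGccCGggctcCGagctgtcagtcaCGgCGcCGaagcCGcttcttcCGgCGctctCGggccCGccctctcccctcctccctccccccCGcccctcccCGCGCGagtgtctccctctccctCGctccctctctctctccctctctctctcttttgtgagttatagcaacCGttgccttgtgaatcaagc

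Rfx2 promoter, chr17:56830959-56831258, minus strand: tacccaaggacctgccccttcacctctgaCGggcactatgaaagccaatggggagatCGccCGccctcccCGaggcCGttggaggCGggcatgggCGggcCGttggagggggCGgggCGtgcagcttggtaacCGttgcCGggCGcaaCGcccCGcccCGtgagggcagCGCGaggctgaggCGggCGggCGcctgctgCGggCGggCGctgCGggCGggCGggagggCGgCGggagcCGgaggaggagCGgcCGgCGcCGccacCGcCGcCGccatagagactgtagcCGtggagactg

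Rfx6 promoter, chr10:51685268-51685567, plus strand, an internal start of the gene: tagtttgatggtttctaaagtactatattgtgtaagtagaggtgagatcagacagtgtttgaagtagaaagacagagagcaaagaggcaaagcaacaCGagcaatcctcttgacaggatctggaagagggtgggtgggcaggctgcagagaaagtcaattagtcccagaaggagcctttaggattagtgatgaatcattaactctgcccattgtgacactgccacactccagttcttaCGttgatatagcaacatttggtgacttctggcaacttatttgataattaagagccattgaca

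The Rfx3 window held 31 CG pairs, the Rfx2 window 38 and the Rfx6 window 2. As a ratio of observed to expected CG pairs, this was 1.02 for Rfx3, 0.907 for Rfx2 and 0.156 for Rfx6, beside a median of 0.384 over all 32851 RefSeq promoters. The other windows gave 1.03 for Rfx7 with 53 CG pairs, 0.931 for Rfx1, 0.798 for Rfx5, and 0.829 and 0.227 for the 5′ and the internal start of Rfx4. The 2 windows below the median were the internal starts of Rfx4 and Rfx6, and neither was covered by a peak of the replicated, pool C or pool D list. All 6 CG-rich windows were covered at least in part by a replicated peak, over 300 of 300 bases for Rfx3, Rfx4 (5′ start) and Rfx5, 150 for Rfx7, 119 for Rfx1 and 57 for Rfx2. The Rfx2 window was covered over 62 bases in pool C and 0 in pool D, so this split did not hold in pool D. The share of all RefSeq promoters covered by a peak, CG-rich or not, was not computed. Whether the split is particular to these genes was therefore not tested.

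A promoter peak was counted where a peak touched 1 kb on either side of any annotated start of the gene (GENCODE M21). By this rule 6 of the 7 genes were marked in the replicated list, and the same 6 were marked in each pool's own list. Over all protein-coding genes the share was 61.6% in the replicated list, 62.3% in pool C and 57.9% in pool D. The exception was Rfx6. Of the 44 distinct annotated starts of the 7 genes, 31 lay within 1 kb of a replicated peak. Of these 31, 15 were closely spaced starts of Rfx5, and the share over all annotated starts was not computed.

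Peak signals are values computed by the authors, and the sources used here do not state their scaling, so levels were ranked within a list and not compared between lists. The median promoter signal over all genes with a promoter peak was 13.8 in the replicated list, 15.8 in pool C and 10.2 in pool D. In the replicated list the members fell in the order Rfx3, Rfx1, Rfx5, Rfx7, Rfx4, Rfx2. That order was the same in the pool C list, and in pool D Rfx7 stood above Rfx5. The plot of promoter signals shows all 3 lists.

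**Figure D1:**
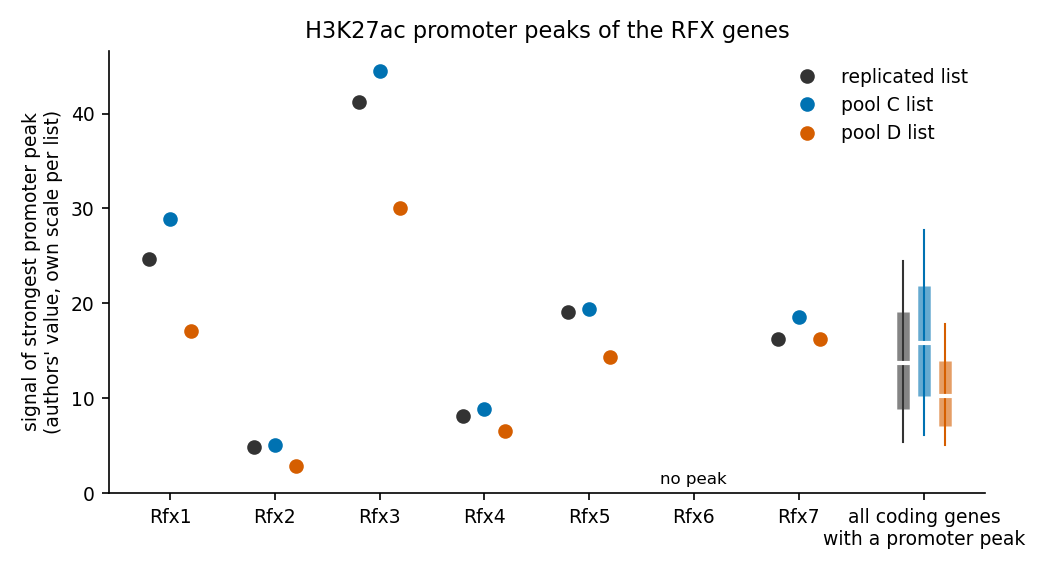
Signal of the strongest promoter peak of each RFX gene (vertical axis, the authors' value on each list's own scale) in the replicated, pool C and pool D lists; at the right, the thick bar spans the middle 50% of coding genes with a promoter peak, the thin line the 10th to the 90th percentile and the white mark the median. Rfx3 lies above the thin line in every list shown, Rfx2 below it, and Rfx6 had no peak.

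Rfx3, a regulator of ciliary genes, had one of the strongest promoter peaks of the tissue. Its promoter signal was 41.3 in the replicated list, 44.5 in pool C and 30.02 in pool D. It ranked 42 of 13508 genes in the replicated list, 36 of 13643 in pool C and 57 of 12683 in pool D, so the pools placed it alike. These are among the values on which the gene was selected.

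The Rfx3 peak was also wide, at chr19:28003398-28013718 (10321 bp). It covered the 5′ end of the gene (28011166, minus strand) and most of its width lay inside the gene. In pool C it was 9041 bp wide. In pool D it was split into a peak of 2505 bp upstream with signal 30.02 and one of 5727 bp downstream with signal 15.3. The gap between them was 86 bp and held the 5′ end. Counted along the gene from its 5′ end, the summit lay at -736 bp in the replicated list, -734 bp in pool C and -738 bp in pool D, so the 3 lists placed the highest point within a few bases of each other.

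Rfx3 had 17 replicated peaks in a window of 349.4 kb, and none of the 17 lay within 1 kb of a start site of another gene. Peaks upstream of the gene were centred at -7.3, -26.3, -34.4 and -43.5 kb from the 5′ end, with signals of 5.19, 6.13, 8.44 and 5.67. Each of these upstream places also had a peak in pool C and in pool D. Inside the gene the strongest of the other peaks was chr19:27904061-27905804, in an intron 106.2 kb from the 5′ end. Its signal was 11.1 in the replicated list, 12.5 in pool C and 7.43 in pool D.

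The weaker peaks of the Rfx3 window differed between lists. The pool C list had 24 peaks there, of which 7 (29.2%) overlapped no replicated peak, beside 20.7% of all pool C peaks. The pool D list had 19, of which 1 (5.26%) overlapped none, beside 0.492% of all pool D peaks. The list from both pools together had 22, of which 5 (22.7%) overlapped none, beside 20% of that list, and these 5 were intron peaks with signals from 2.40 to 3.30. An internal start of a coding transcript lies 28218 bp into the gene and had a peak within 1 kb in pool C alone, with signal 2.54, among the lowest 1.05% of that list. Of the 8 annotated Rfx3 starts, 5 were marked in the replicated list, and those 5 lie within 376 bp of the 5′ end.

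**Figure D2:**
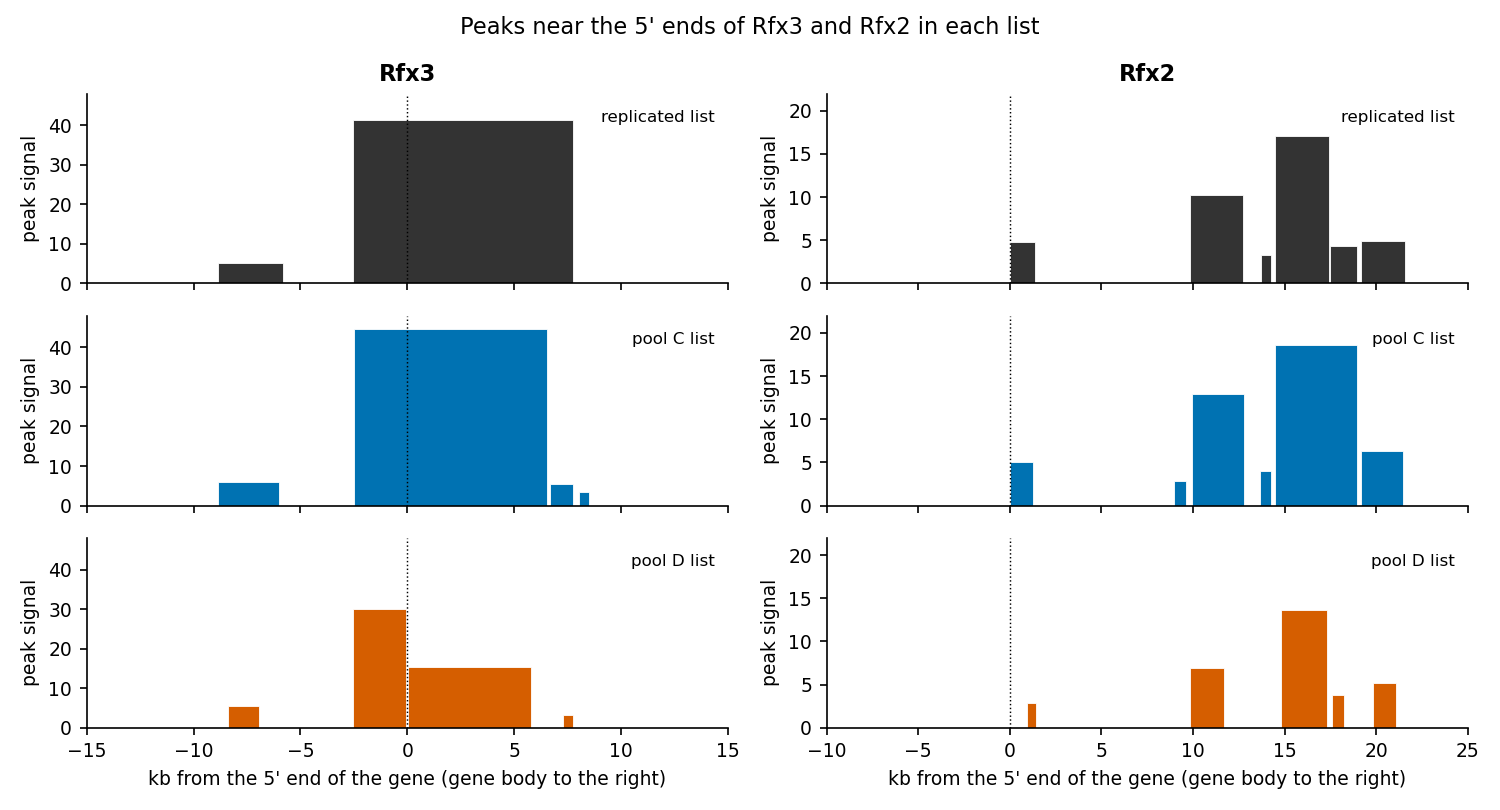
Peaks of the replicated, pool C and pool D lists near the 5′ ends of Rfx3 (left) and Rfx2 (right), drawn to width, with distance in kb from the 5′ end on the horizontal axis and peak signal on the vertical axis. The dotted line is the 5′ end. In pool D the Rfx3 peak is split there, and in all 3 lists the highest Rfx2 peak lies about 16.0 kb inside the gene.

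Rfx1, a broadly acting family member, had the next strongest promoter peak. Its promoter signal was 24.6 in the replicated list, 28.9 in pool C and 17.1 in pool D. These were the 90.3, 91.9 and 88.1 percentiles of genes with a promoter peak, so Rfx1 stood high in both pools. A gap of 230 bp, 216 bp in pool C and 264 bp in pool D, separated a peak upstream of the start from one beginning just before it. In pool D the upstream peak was the stronger of the pair, at 17.1 against 15.7, and in the other lists it was the weaker, at 19.9 against 24.6 in the replicated list.

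The Rfx1 promoter region is shared with C330011M18Rik, whose annotated starts lie within 1 kb of the 2 promoter peaks and of the next peak inside Rfx1, so the signal cannot be divided between these genes. The upstream promoter peak, which gives the pool D value of Rfx1, also lies at a start of the coding gene Gm10643. Replicated peaks ran on into the gene with signals of 14.0 and 10.1, and with the promoter peak they covered 25.6% of the gene body. The median of 4646 coding genes within 1.5 times the length of Rfx1 was 4.12%, and Rfx1 stood at the 90.7 percentile of them. At the 3′ side, 2 peaks at the start of Dcaf15 had signals of 11.9 and 11.2, and a weaker one lay at the start of Cc2d1a (5.90). Upstream of Rfx1 a peak lay at the start of Il27ra (5.67).

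Rfx2, known for its part in ciliogenesis and sperm formation, showed the reverse arrangement: a weak promoter peak and strong peaks in introns. Its promoter signal was 4.86 in the replicated list, 5.07 in pool C and 2.88 in pool D. These were the 7.96, 6.57 and 0.481 percentiles. The replicated and pool C peaks just reached the 5′ end, while the pool D peak was 488 bp wide and stopped 937 bp short of it.

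The strongest peak in the body of Rfx2 was chr17:56813612-56816545, in an intron, with its summit 16.0 kb from the 5′ end. Its signal was 17.1 in the replicated list, 18.6 in pool C and 13.6 in pool D, where the summits lay 15.9 and 16.1 kb inside. A second intron peak, centred 11.3 kb inside, had a signal of 10.2. The intron peak thus exceeded the promoter peak by a factor of 3.52 in the replicated list, 3.67 in pool C and 4.73 in pool D. No annotated start of any gene lies within 1 kb of it.

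Among coding genes with a promoter peak, 5.11% had a body peak away from any start that was stronger than the promoter peak in the replicated list, 5.39% in pool C and 4.71% in pool D. Rfx2 was the single member of the 7 in this class in each of these lists. By the ratio itself it ranked 11 of the 6521 genes that had both kinds of peak in the replicated list, 13 of 6804 in pool C and 1 of 5003 in pool D. This comparison was chosen after the Rfx2 values were seen. For the other members the ratio in the replicated list was 0.594 for Rfx4, 0.408 for Rfx1, 0.270 for Rfx3 and 0.199 for Rfx7, beside a median of 0.406 over all genes.

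Downstream of Rfx2 the strongest peak of the window, with signal 33.1, lay at the start of Dus3l, 66.1 kb from the Rfx2 5′ end. Peaks covered 21.0% of the Rfx2 body, against a median of 4.10% for 3458 coding genes within 1.5 times its length. Among those genes Rfx2 stood at the 88.1 percentile. In the pool D list peaks covered 12.1% of the Rfx2 body, beside a median of 1.92% over all coding genes. Stitched at up to 10 kb, the promoter and intron peaks of Rfx2 joined into a domain of 21.6 kb with 6 peaks, ranked 1963 of 32474 domains by the sum of signal times length. At 5 kb the promoter peak stood alone and ranked 23877 of 42827. The Rfx3 domain ranked 198 at 10 kb and 109 at 5 kb.

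**Figure D3:**
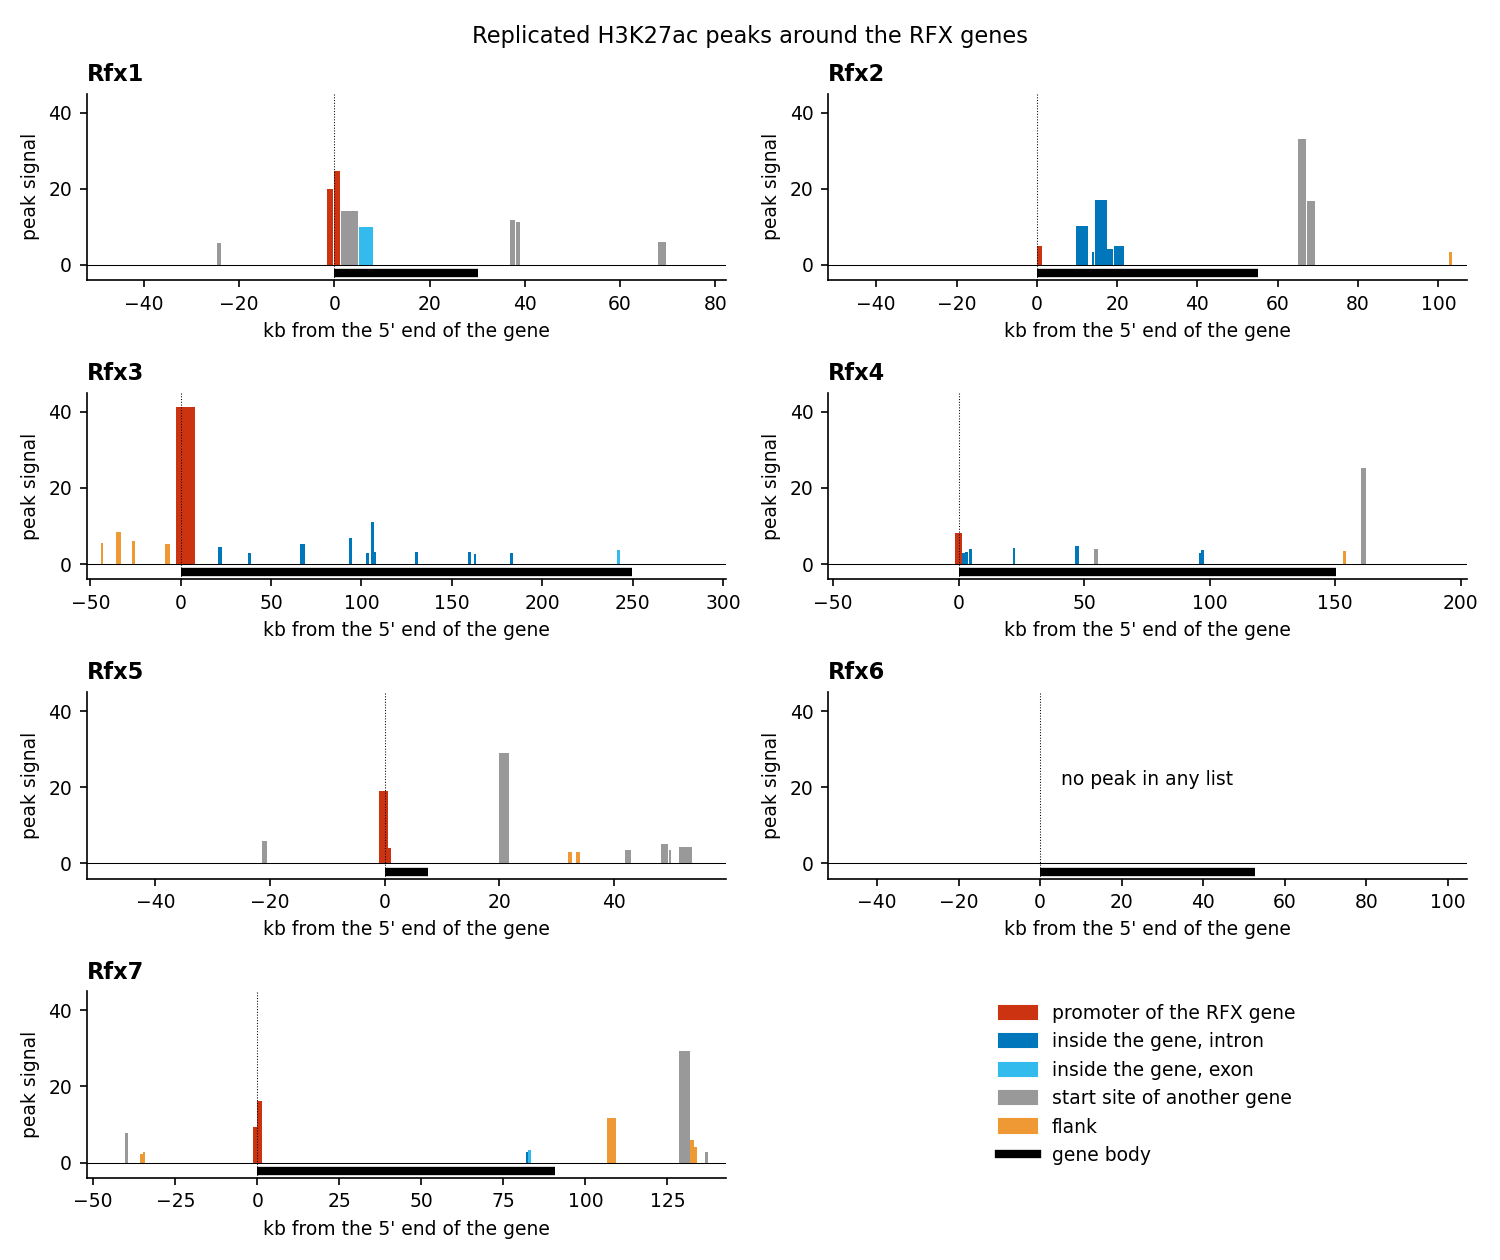
Replicated H3K27ac peaks around each RFX gene, with distance from the 5′ end in kb on the horizontal axis and peak signal on the vertical axis; bars are at least 0.4% of the panel wide, colour gives the class of the peak and the black bar is the gene body. The promoter peak of Rfx3 reaches 41.3, the Rfx2 promoter peak 4.86, and the Rfx6 panel is empty.

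Rfx4, expressed in the developing brain and needed for its midline structures, had a weak but wide promoter peak. Its signal was 8.18 in the replicated list, 8.85 in pool C and 6.57 in pool D, at the 21.5, 19.7 and 21.4 percentiles. Its width of 3114 bp in the replicated list was at the 83.5 percentile, so width and height ranked far apart. Of its 4 annotated starts, only the most 5′ one was marked, and the starts 6176, 78684 and 82086 bp into the gene had no peak within 1 kb in the replicated, pool C or pool D list.

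Inside Rfx4, 7 intron peaks had signals between 2.81 and 4.86 in the replicated list. The pool D list had 4 peaks in the gene body, the replicated list 9 and pool C 8, so most of the intron peaks of Rfx4 were not detected in pool D. A peak of signal 25.3 at the start of Ric8b, 161.4 kb from the Rfx4 5′ end, exceeded every peak of Rfx4 itself.

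Rfx5, the DNA-binding part of the MHC class II activator complex, had a promoter signal of 19.1 in the replicated list, 19.4 in pool C and 14.4 in pool D. The percentiles were 75.4, 65.9 and 77.3. Rfx7 had signals of 16.3, 18.6 and 16.2, at the 63.0, 62.5 and 85.1 percentiles. Their order therefore turned between the pools, and the 2 genes cannot be ranked against each other from these lists.

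Both genes had promoter peaks of ordinary width, 1555 bp for Rfx5 and 1384 bp for Rfx7 in the replicated list, beside a median of 1710 bp. A break of 150 bp in the Rfx7 signal lay just upstream of its start, and in pool D this break was 219 bp and held the start. All 15 annotated Rfx5 starts were within 1 kb of a replicated peak, and all lie within 1396 bp of each other. Rfx7 shares its start region with 4930509E16Rik, and 4 of its 6 starts were marked. In its body the replicated list had 2 further peaks, with signals of 2.78 and 3.24, and pool D had none. With the promoter peak this made 3, beside a median of 4 for 2530 coding genes within 1.5 times its length.

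The strongest flank peak of each of these 2 genes lay at the start of a neighbour. Near Rfx5 the start of Pi4kb reached 29.0, above the Rfx5 promoter, and the start of Selenbp1 5.93. Near Rfx7 the start of Nedd4 reached 29.3 and that of Tex9 7.87. A peak of signal 11.7, at chr9:72638921-72641610 between Rfx7 and Nedd4, touched no annotated start and was found in pool C (9.42) and pool D (8.22) as well.

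Rfx6, the islet factor, had no peak in any of the 4 lists within its window of 152.7 kb. The nearest replicated peak lay 223.9 kb from the gene. Among all protein-coding genes 16.6% had an empty window in all 4 lists, and among the 3544 genes within 1.5 times the length of Rfx6 the share with no peak in the window was 6.88%. No peak was detected in this region, and since the depth is unknown, absence of the mark was not shown.

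**Figure D4:**
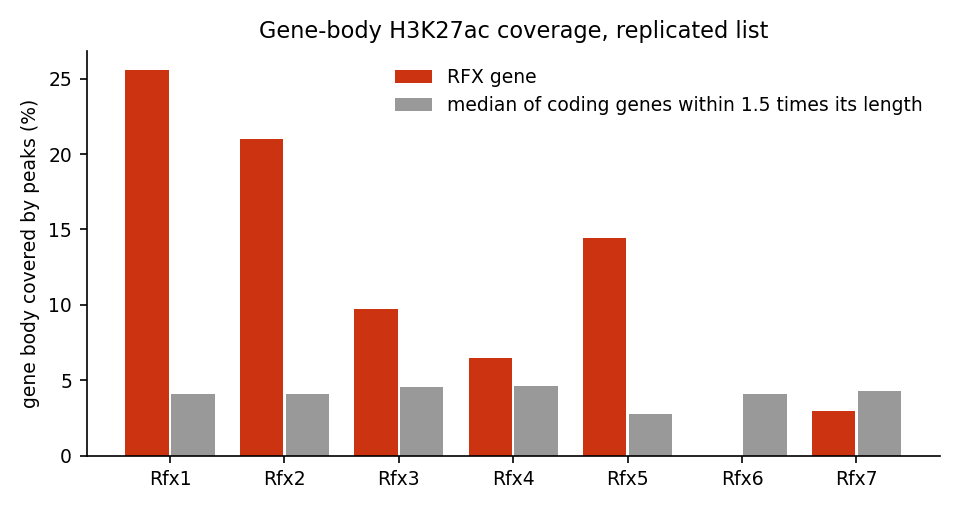
Share of each gene body covered by replicated peaks (red, percent) beside the median of coding genes within 1.5 times its length (grey). Rfx1 (25.6%) and Rfx2 (21.0%) are highest, at the 90.7 and 88.1 percentiles of the genes of like length. Rfx7 (2.95%) lies below its grey bar and Rfx6 is at 0. In the pool D list the shares were 22.8% for Rfx1, 12.1% for Rfx2, 6.14% for Rfx3, 1.43% for Rfx4, 6.81% for Rfx5 and 0.963% for Rfx7. The grey bars do not apply to them: the pool D median over coding genes of any length was 1.92%.

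Over the whole set, the 67 replicated peaks divided into 9 at the genes' own promoters, 24 in introns, 3 over exons, 18 at starts of other genes, 6 in upstream flanks and 7 in downstream flanks. By gene there were 17 for Rfx3, 12 for Rfx7, 11 for Rfx4, 10 for Rfx5, 9 for Rfx2, 8 for Rfx1 and 0 for Rfx6. Within 20 kb around the 5′ end, peaks covered 13364 bp at Rfx3, 8942 bp at Rfx1, 5780 bp at Rfx4, 2702 bp at Rfx7, 2099 bp at Rfx5 and 1542 bp at Rfx2. The median over all coding genes, those without a peak included, was 1480 bp. Among the 12656 genes with a promoter peak in the replicated, pool C and pool D lists, the lengths stood lower. They were at the 98.9 percentile for Rfx3, 93.8 for Rfx1, 82.0 for Rfx4, 49.6 for Rfx7, 37.0 for Rfx5 and 22.3 for Rfx2. In the pool D list the covered lengths were 2691 bp at Rfx4, 1092 bp at Rfx5 and 667 bp at Rfx2. The median over all coding genes was 988 bp in that list, and Rfx2 fell below it. At the 50 kb limit, the farthest peak inside was 47.6 kb from its gene (Rfx2, signal 3.34). The nearest peaks outside were 50.3 kb from Rfx1 (signal 11.9) and 52.4 kb from Rfx5 (signal 13.4).

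Of the 67 replicated peaks, 53 (79.1%) had at least 50% of their length inside pool C peaks and 38 (56.7%) inside pool D peaks. For all replicated peaks the shares were 82.8% and 44.0%. The pool D list was the shorter, with 63623 peaks against 94836 for pool C. By gene, 7 of 8 Rfx1 peaks were found in both pools, 10 of 17 for Rfx3, 5 of 9 for Rfx2 and 4 of 11 for Rfx4. For Rfx5 it was 5 of 10 and for Rfx7 6 of 12, and over all 67 peaks 37 (55.2%), beside 42.6% of all replicated peaks. There were 13 member peaks (19.4%) found in neither pool list by this rule, beside 15.8% of all replicated peaks.

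The single RFX site GTTGCC, searched on both strands, was present in 4 of the 8 promoter windows, those of Rfx1, Rfx2, Rfx3 and Rfx6, beside 12.5% of all RefSeq promoters. The sites are shown with 12 bases on each side, read along the strand that spells GTTGCC, with the site in capitals.

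Rfx1, chr8:84066825-84066854, plus strand: tgggtagcaacaGTTGCCccggtgagggaa

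Rfx2, chr17:56831107-56831136, minus strand: agcttggtaaccGTTGCCgggcgcaacgcc

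Rfx3, chr19:28011118-28011147, minus strand: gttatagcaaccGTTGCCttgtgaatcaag

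Rfx6, chr10:51685523-51685552, minus strand: attatcaaataaGTTGCCagaagtcaccaa

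In Rfx1, Rfx2 and Rfx3 the letters AAC and 1 further base stand directly before GTTGCC, and in Rfx6 they do not. This combination was looked for after the sequences had been read. It was found, on either strand, in 44 of 32851 RefSeq promoters (0.134%). AAC is the reverse complement of GTT, so these promoters hold GTT on each strand in the opposite order to that of the X-box. The Rfx1 site lay inside a peak in all 4 lists and the Rfx2 site, at -116 bases from the start, in none. The Rfx3 site, 31 bases after the start, lay inside the peak in 3 lists and in the gap of pool D.

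A paired X-box, spelled here GTTNCC followed after 0 to 3 bases by GGNAAC, was found in none of the 8 promoter windows, beside 0.804% of all promoters. In whole peaks it was found in 1 of the 67 member peaks (1.49%), beside 1.55% of all replicated peaks. That site lies 38.2 kb from the Rfx1 5′ end, in the peak of signal 11.2 at the start of Dcaf15. It is shown with 30 bases on each side and the X-box in capitals.

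X-box, chr8:84105033-84105106, plus strand: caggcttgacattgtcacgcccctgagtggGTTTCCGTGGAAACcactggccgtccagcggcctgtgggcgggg

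In the 500 bp around the peak centre, GTTGCC occurred in 14 of the 67 member peaks (20.9%), beside 17.4% of all replicated peaks. The AP-1 site TGANTCA occurred in 11 (16.4%), beside 15.5%. The cyclic AMP response element TGACGTCA occurred in 0, beside 0.648%. A match to these letters is a description of the sequence and not a bound site.

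The genes whose promoter pattern was most like that of each member were found by distance over 4 percentiles: promoter signal in the replicated, pool C and pool D lists, and length covered around the 5′ end, among 12656 genes with a promoter peak in all 3 lists. For Rfx3 they were Brd2, Strn4 and Setd1b, for Rfx1 Bhlhe41, Lrp1 and Ppt2, and for Rfx2 Hist1h4k, Trim25 and Gja4. For Rfx4 they were Sema6a, Dnajc4 and Dock6, for Rfx5 Scn2a, Syt16 and Cep83, and for Rfx7 Gm29427, Yod1 and Tut7. The nearest neighbour of Rfx3, Brd2, was 0.353 percentile points away with a promoter signal of 43.0, and the nearest of Rfx7 was 7.39 points away.

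Genes that work with the RFX factors were read in the same way. Of 4 partners and relatives, 3 had a replicated promoter peak, beside 61.6% of all coding genes. They were Rfxap (18.4) and Rfxank (9.86), which encode the proteins that join Rfx5 on DNA, and Rfx8 (5.55). The Rfxank peak also lies at coding starts of Borcs8 and Mef2b, so its signal cannot be assigned to Rfxank alone. Ciita, the coactivator that the Rfx5 complex recruits at MHC class II genes, had none in any list. The same 3 were marked in pool C and in pool D.

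Of 8 MHC class II genes, 3 had a replicated promoter peak, beside 61.6% of all coding genes. The signal of 43.0 at H2-DMa came from a peak that also covers the start of Brd2, so it cannot be assigned to H2-DMa. H2-Eb1 had 5.47 and H2-Ob 4.05, and H2-Ob had none in pool D. H2-Aa and Cd74, the antigen-presenting chain and its invariant partner, had none. Among 6 MHC class I genes 3 were marked in the replicated list, beside the same 61.6%. They were B2m at 9.25, Tapbp at 7.83 and Tap1 at 5.68, the last in a peak shared with the start of Psmb9. H2-K1 had no promoter peak in any list, and H2-D1 had one in pool C (3.28) but not in pool D or the replicated list.

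All 20 primary cilium genes had a promoter peak in each of the 4 lists, beside the 61.6% of coding genes given above. Their replicated signals ran from 4.86 to 30.5 with a median of 11.3, below the 13.8 of all marked genes. The highest were Bbs2 (30.5), a part of the ciliary cargo complex, Ift88 (21.4), Arl3 (19.6) and Ift27 (18.4), with the Arl3 peak shared with the start of Sfxn2. Of 15 motile cilium genes matched, 9 were marked in the replicated list, 10 in pool C and 8 in pool D. The shares over all coding genes were 61.6%, 62.3% and 57.9%. The highest were Ccdc39 (12.2) and Rsph1 (11.9), parts of the motile axoneme, the ciliogenesis factor Foxj1 (11.1) and Ccdc40 (8.77), while Dnah11 and Dnah5, which encode dynein heavy chains, had none. The Ccdc40 peak is shared with the start of Tbc1d16.

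Among pancreatic islet genes, Abcc8, which encodes a potassium channel subunit, had a promoter signal of 10.1 in the replicated list, and the transcription factor gene Nkx2-2 had 9.02. Gcg and G6pc2 had none, as was the case for Rfx6 itself.

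Markers of the tissue were checked with the same promoter rule. Over all protein-coding genes the marked share was 61.6% in the replicated list, 62.3% in pool C and 57.9% in pool D. All 6 dentate granule neuron markers, all 6 CA field neuron markers and all 6 astrocyte markers had a promoter peak in every list. Their median replicated signals were 12.9, 9.91 and 9.51, below the 13.8 of all marked genes. Of 6 ependyma markers 4 were marked in the replicated list, with signals from 4.31 to 11.1, and 3 in pool D. Of 6 microglia markers 4 were marked in the replicated list, 6 in pool C and 3 in pool D. None of 6 liver markers was marked in any list. Ependymal cells carry motile cilia. The part of ependymal cells and of microglia in the values of the RFX genes was not tested.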

How the data were processed

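H3K27ac ChIP-seq of 4 libraries (2 pools with 2 technical replicates each) was analysed from the peak lists the authors deposited, on mm10 per the labels. The aligner, the peak caller and the depth were not given in the sources used here. Each list gives, as deposited, a signal value per peak, −log10 p- and q-values and a summit position, with the signal and −log10 values computed by the authors. None of the 350032 peaks ran past a chromosome end of GRCm38.p6. Peaks were joined to GENCODE M21 genes and to RefSeq promoters with Python 3.11.15, pandas 2.3.3 and pysam 0.24.0. Functions were tested on simulated peaks and sequences.

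The members, lists and comparisons were chosen with earlier results of these data known. No test was made: the lists give 1 value per pool and the members were selected on these values. Named were all 7 members, up to 4 highest and 2 unmarked genes of each related list, all RFX partners, the 3 nearest genes by likeness, and genes whose starts lie under described peaks. Dnai1 was not matched by symbol. The count of marked genes over the islet list is not reported here. The planned protein comparison was not run. Alternatives covered the peak threshold, list, windows, overlap, stitching and motif window.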

Additional observations from a re-analysis of the deposited data

How the results depend on the processing

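Over 25 results and 115 alternative values, 91 stayed within the limit used and 24 moved. The limits were the SD between pools, a 95% Wilson interval, 1.5 times for counts and ratios, and 5 points for domain percentiles. That SD comes from the pool C and pool D values, which are also among the alternatives. Pools that differ more therefore give a wider limit, and the Wilson interval takes the 67 peaks as independent. The count of values that stayed is thus not a measure of stability. The count of 6 members with a promoter peak was the same in every alternative run, pool C and pool D alone included (6 to 6). Other start windows were run on the replicated list only. In pool D no peak lay closer than 863 bp to an Rfx2 start, so Rfx2 would not be marked there with a window of 500 bp. The count of peaks in the windows was 67 and ranged from 60 to 65 with 1 pool alone. The pool lists divide the signal into other peaks, so these counts do not tell how many of the 67 recur. By the 50% overlap rule 53 of the 67 were found in pool C and 38 in pool D. The count became 37 above the median signal and 36 in gene bodies only, both fewer by construction. The promoter percentiles moved by more than the SD between pools when only peaks above the median signal were kept, for Rfx2 (2.38) and Rfx4 (16.7). Genes with weaker promoter peaks drop out of that ranking, so these percentiles are lower by construction. With 1 pool alone the percentile ranged from 88.1 to 91.9 for Rfx1, 0.481 to 6.57 for Rfx2, 99.6 to 99.7 for Rfx3, 19.7 to 21.4 for Rfx4, 65.9 to 77.3 for Rfx5 and 62.5 to 85.1 for Rfx7. Pool D alone moved the promoter percentile of Rfx2 from 7.96 to 0.481, which is more than the SD between pools. Percentiles also moved by more than this SD for Rfx3 and Rfx7 with pool D alone, and for Rfx4 and Rfx5 with pool C alone. The share of member peaks with GTTGCC was 38.8% in 1 kb around the centre, a longer window, beside 30.7% of all replicated peaks. The pool shares kept to 73.1% to 85.1% for C and 46.3% to 67.2% for D under other overlap rules. Covered length moved in 9 of 36 values, all of them smaller, and domain percentiles moved in 5 of 12. Some of these lengths come from 4 kb around the 5′ end or from peaks above the median signal, which cannot cover more by construction. No paired analysis was possible because no result comes from a test. Depth is unknown, so weak peaks cannot be told from peaks missed.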
